A study of Mus musculus with 160 samples.

Results

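Sympathetic neurons and adrenal chromaffin cells make noradrenaline and adrenaline, pack them into vesicles, release them and take them back up, and 9 of the 46078 genes in the count table were chosen here by name because they carry out these steps. The rule goes by function, though it was made with earlier results of these data known. Gch1 encodes the first enzyme of tetrahydrobiopterin synthesis, Th the tyrosine hydroxylase that needs this cofactor and sets the rate of the pathway, Ddc the decarboxylase that makes dopamine and Dbh the hydroxylase that turns dopamine into noradrenaline. Slc18a1 and Slc18a2 encode the vesicular monoamine transporters VMAT1 and VMAT2, Chga and Chgb the chromogranins of the dense-core vesicle, and Slc6a2 the noradrenaline transporter of the plasma membrane.

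In the embryo the first cells with this set of genes arise from trunk neural crest that has settled beside the dorsal aorta, where BMP signals switch on a set of transcription factors, Hand2 and Gata3 among them, ahead of the enzymes. GATA3 is needed for Th and Dbh to be kept on in these cells, and catecholamines from them have been linked to the making of blood stem cells in the neighbouring aorta. Ddc and Slc18a2 are less specific, since other monoamine-handling cells, among them platelets, mast cells and several epithelia, use one or both.

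RNA was measured with Smart-seq2, a full-length polyA method with PCR amplification, in pools of 20 cells from the aorta-gonads-mesonephros (AGM) region of mouse embryos. Every embryo had the genotype Gata3-GFP +/-, a heterozygous reporter of Gata3 expression, so the GFP- fractions carried the reporter as well. At E10.5 endothelial cells (ECs, sorted as Cdh5+ cells lacking CD41 and CD45) and haematopoietic cells (HCs, sorted on CD41 and CD45) were taken, and at E11.5 mesenchymal cells (MCs, sorted on Pdgfrb) and sympathetic nervous system cells (SNS, sorted on Ngfr). Each was split into GFP+ and GFP- cells, which gave 8 populations of 20 pools. The Ngfr gate also admits Schwann cell precursors and other crest cells, and the labels do not tie a pool to an embryo, so p-values here measure the spread between pools, which may be technical.

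Of 160 pools, all but 7 passed the limits on read number and composition. Pools used held 1400824 to 16004756 counts on genes, with a median of 3780504. Some libraries went against their sort labels, and whether libraries were exchanged between sorts was not tested. In 3 pools of each SNS fraction raw Pdgfrb exceeded Ngfr, and these 6 were left out, which kept 15 GFP+ and 16 GFP- SNS pools. In 3 pools of each MC fraction Ngfr exceeded Pdgfrb, and results on MCs are given with and without them. In 10 of 20 GFP+ HC pools and 2 of 20 GFP- HC pools Ngfr had at least 10 counts, and the HC results are likewise given with and without these pools. Gata3 itself had medians of 188 and 39.3 CPM (the usual depth-scaled count, here over gene counts after TMM scaling) in the GFP+ and GFP- SNS pools used, 45.04 and 7.02 in HCs, 77.9 and 10.45 in ECs, but 35.8 and 9.84 in MCs with a range up to 395 in libraries labelled GFP- MC.

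The promoters of 3 of these genes are shown because they share 1 feature in the sequence, whereas the genes differ in where they were measured: Th and Chgb were high in GFP+ SNS pools, and Slc18a2 was highest in GFP+ ECs. They run from 250 bases before to 50 bases after the RefSeq start (GRCm38.p6), in the direction of transcription, at chr7:142899946-142900245 on the minus strand for Th, chr2:132781392-132781691 on the plus strand for Chgb and chr19:59260628-59260927 on the plus strand for Slc18a2. Capitals mark the core site of the cAMP response element, TGACG, on either strand, and in Slc18a2 also a GATA site, AGATAA, which lies on the opposite strand.
Th: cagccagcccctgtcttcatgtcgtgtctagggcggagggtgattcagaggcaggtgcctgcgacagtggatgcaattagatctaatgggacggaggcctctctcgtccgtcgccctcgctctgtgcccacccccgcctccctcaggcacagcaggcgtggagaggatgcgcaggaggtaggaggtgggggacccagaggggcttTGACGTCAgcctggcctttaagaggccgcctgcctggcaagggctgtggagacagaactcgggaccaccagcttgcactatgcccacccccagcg
Chgb: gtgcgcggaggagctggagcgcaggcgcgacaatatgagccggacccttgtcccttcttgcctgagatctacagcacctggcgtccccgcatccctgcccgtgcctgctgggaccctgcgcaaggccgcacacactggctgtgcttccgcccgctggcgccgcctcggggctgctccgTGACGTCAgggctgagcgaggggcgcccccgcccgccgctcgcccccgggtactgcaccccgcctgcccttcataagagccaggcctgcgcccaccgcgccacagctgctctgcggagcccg
Slc18a2: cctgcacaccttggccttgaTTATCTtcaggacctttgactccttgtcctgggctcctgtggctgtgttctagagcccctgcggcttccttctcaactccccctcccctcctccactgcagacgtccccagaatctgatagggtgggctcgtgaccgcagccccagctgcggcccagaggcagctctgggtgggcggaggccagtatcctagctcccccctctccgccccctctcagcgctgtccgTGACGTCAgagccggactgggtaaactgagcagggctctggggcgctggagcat

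In each of these 3 promoters a TGACG on the printed strand overlapped one on the opposite strand, which together make the full palindrome. Its first base lay 45 bases before the start in Th, 72 before it in Chgb and 4 before it in Slc18a2. A single such site was present in Dbh, Chga and Gch1, so 6 of the 8 RefSeq promoter entries found for 7 members held it (Ddc has 2 entries, neither with the site), against 20.8% of 32851 mouse promoters of the same length. AGATAA on either strand was in 1 of the 8 entries, that of Slc18a2, against 11.2% of promoters, and TGATAA in 0 against 9.05%. The E-box CAGCTG was in 3 of 8 (Chgb, Chga and Slc18a2) against 16.3%, CATCTG in 0 against 17.2%, and a paired homeodomain site (TAATNNNATTA) in 0 against 0.487%. Slc18a1 and Slc6a2 had no entry. These letters are a description of a short window and say nothing of which factor binds there.

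In the plot of all pools, Th, Chga and Chgb were low in ECs, GFP- HCs and most MC pools (of the MC pools without Ngfr above Pdgfrb, 1 GFP+ pool held 13.3 CPM of Th), whereas other genes were also present elsewhere (Slc18a2 and Slc18a1 in ECs, Gch1 in ECs and HCs, Ddc in GFP+ HCs). Without the 6 MC pools whose markers go against their labels, mean Th was ordered as GFP+ SNS 109.6 CPM, GFP+ HCs 36.5, GFP- SNS 9.20, GFP+ MCs 0.965, GFP- MCs 0.790, GFP- HCs 0.210, GFP+ ECs 0.207 and GFP- ECs 0.158. In that order GFP+ HCs differed from GFP- SNS (adjusted p = 0.005049, edgeR over the 8 populations) and GFP- SNS from GFP+ MCs (adjusted p = 0.0001074), whereas GFP+ SNS and GFP+ HCs did not pass the threshold of 0.01 (adjusted p = 0.01913) and none of the neighbours further down did. HCs and ECs were taken at E10.5 and SNS cells and MCs at E11.5. In comparisons across these days, here and below, cell type and stage cannot be told apart. The place of GFP+ HCs rested on few pools: their median was 1.64 CPM against 7.01 in GFP- SNS, the mean without the highest pool was 16.5 CPM, and without the 12 HC pools with at least 10 Ngfr counts it was 9.92 CPM and did not differ from GFP- SNS (adjusted p = 0.8892), while GFP+ SNS then differed from GFP+ HCs (adjusted p = 2.064e-05). With all MC and HC pools, GFP- MCs came second for Th at 62.1 CPM and did not differ from GFP+ SNS (adjusted p = 0.5025). The difference between GFP+ HCs and GFP- SNS was then not called (adjusted p = 0.02706). Neither was that between GFP- SNS and GFP+ MCs (adjusted p = 0.1019).

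**Figure D1:**
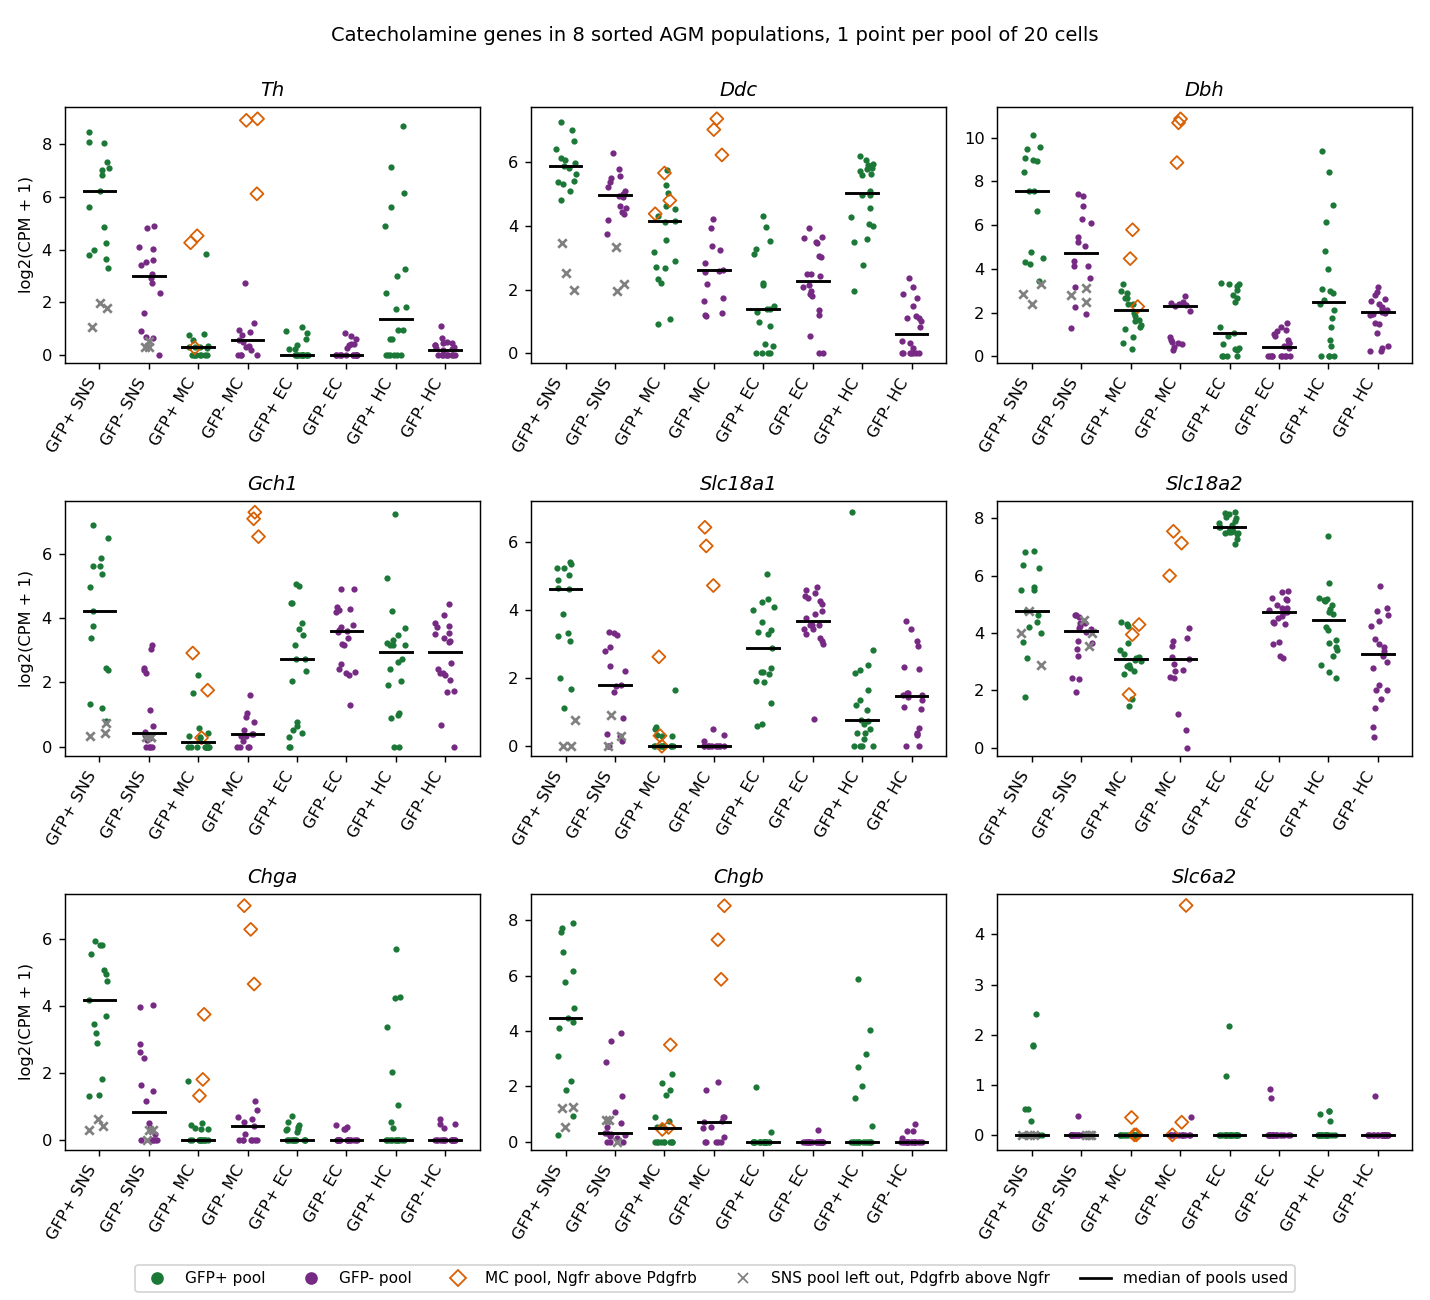
CPM of each gene in every pool past the limits (log2 of CPM plus 1 on the vertical axis) for the 8 sorted populations; green marks GFP+ and purple GFP- pools, bars the median over pools used, orange diamonds the MC pools with Ngfr above Pdgfrb and grey crosses the SNS pools left out. Th, Dbh, Chga and Chgb are high in GFP+ SNS pools and in 3 libraries labelled GFP- MC, while Slc18a2 is highest in GFP+ ECs, where its lowest pool stands at 136.5 CPM.

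Dbh and Chga followed much the same order as Th, with GFP+ SNS first (means 334 and 24.4 CPM) and apart from GFP+ HCs, the next population (64.6 CPM, adjusted p = 0.0001962, and 5.08 CPM, adjusted p = 0.00215). Chgb was also first in GFP+ SNS (64.7 CPM against 4.61 in GFP+ HCs, adjusted p = 1.131e-06). Without the 12 HC pools as well GFP- SNS came second for all 3 genes, and GFP+ SNS differed from it (Dbh 48.95 CPM, adjusted p = 2.704e-05, Chga 3.26 CPM, adjusted p = 0.000455, and Chgb 2.33 CPM, adjusted p = 2.053e-07). With all MC and HC pools, GFP- MCs came second for Dbh (235 CPM), Chga (13.7), Chgb (34.8) and Gch1 (22.7). They did not differ from GFP+ SNS in any of these (adjusted p = 0.699, 0.5163, 0.4609 and 0.7068). GFP+ SNS against GFP+ HCs was then called for Dbh (adjusted p = 0.003711) and Chgb (adjusted p = 2.188e-05) but not for Chga (adjusted p = 0.01056). Slc18a2 broke the pattern: GFP+ ECs came first at 212 CPM and GFP+ SNS followed at 43.1 CPM (adjusted p = 7.672e-08). For Slc18a1 GFP+ SNS (20.3 CPM), GFP- ECs (13.5), GFP+ ECs (8.81) and GFP+ HCs (7.11) did not differ from neighbour to neighbour beyond their spread, and for Gch1 neither did GFP+ SNS (32.2), GFP+ HCs (14.5), GFP- ECs (11.8), GFP+ ECs (8.93) and GFP- HCs (7.57). Populations further apart could still differ: for Gch1 GFP+ SNS was above GFP- HCs (adjusted p = 0.00751, edgeR over the 8 populations with all MC pools). Without the highest pool the GFP+ HC means were 1.40 CPM for Slc18a1 and 7.45 CPM for Gch1. Per kilobase of exon, so that genes can be compared, the GFP+ SNS means of CPM ran from Dbh 124.2 through Th 46.4, Chgb 23.6, Ddc 15.02, Chga 8.84, Slc18a2 8.24, Gch1 5.14 and Slc18a1 3.76 to Slc6a2 0.109.

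The first comparison asked how the catecholamine genes differ between Gata3-GFP+ and Gata3-GFP- cells of the Ngfr+ sort. All 8 genes that could be tested were higher in GFP+ SNS cells, from Ddc at 1.99-fold to Chgb at 30.3-fold, and Slc6a2 did not reach 10 counts in 5 pools and was not tested. The background was 4.94% of 15658 genes called higher in this comparison (edgeR, adjusted p under 0.01), and the median log2 fold change was 2.85 over the 8 genes against -0.01 over all genes. With the scanpy test on log-normalized counts, 6 of the 8 were called, and Dbh (log2 fold change 2.61, adjusted p = 0.02441) and Slc18a2 (1.23, adjusted p = 0.07204) were not. In pools of 20 cells, more cells of a type and more RNA per cell cannot be told apart.

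Among the enzymes, Gch1 and Th differed most. Gch1 ran from 0.759 through a median of 17.6 to 117.5 CPM in the 15 GFP+ pools and from 0 through 0.334 to 7.92 CPM in the 16 GFP- pools, a log2 fold change of 3.98 (SE 0.70, adjusted p = 8.691e-05). Th ran from 8.85 through 74.5 to 353 CPM against 0 through 7.01 to 29.1 CPM, a log2 fold change of 3.59 (SE 0.58, adjusted p = 2.317e-05). For both genes all 15 GFP+ pools lay above the GFP- median, and for Th 9 and for Gch1 10 of them lay above every GFP- pool. The fractions overlapped all the same, because the low end of GFP+ reached into the GFP- range.

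Dbh, the gene that marks a noradrenergic rather than a dopaminergic cell, had the highest mean CPM per kilobase of exon of the 9 in both fractions. It ran from 9.82 through 188 to 1113 CPM in GFP+ pools and from 1.46 through 25.9 to 172 CPM in GFP- pools, a log2 fold change of 2.79 (SE 0.65, adjusted p = 0.002246). Ddc differed least and had at least 60 counts in every SNS pool used: 27.4 through 58.2 to 151.7 CPM against 12.4 through 30.2 to 76.9 CPM, a log2 fold change of 0.99 (SE 0.23, adjusted p = 0.00251). Only 4 GFP+ pools exceeded all GFP- pools for Ddc, against 9 for Dbh.

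The storage genes rose as well. Slc18a1 ran from 1.19 through 23.2 to 41.1 CPM in GFP+ pools and from 0 through 2.45 to 9.27 CPM in GFP- pools (log2 fold change 2.54, SE 0.55, adjusted p = 0.0009961). Slc18a2 ran from 2.41 through 26.4 to 115.4 CPM against 2.82 through 15.97 to 23.8 CPM (3.02-fold, log2 SE 0.38, adjusted p = 0.002809). The lowest pool of all for Slc18a2 was therefore a GFP+ pool, and 8 of 15 GFP+ pools were above every GFP- pool. VMAT1 is typical of chromaffin cells and VMAT2 of sympathetic neurons in the adult, and here both were measured in the same pools.

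The chromogranins, which bind catecholamines and calcium in the vesicle core, were higher in GFP+ pools, with ranges that overlapped those of GFP- pools. Chgb ran from 0.166 through 21.3 to 236 CPM in GFP+ pools and from 0 through 0.244 to 14.3 CPM in GFP- pools, where 11 of 16 had at most 3 counts (log2 fold change 4.92, SE 0.83, adjusted p = 4.401e-05). Chga ran from 1.49 through 16.98 to 60.3 CPM against 0 through 0.833 to 15.5 CPM (log2 fold change 2.91, SE 0.68, adjusted p = 0.002277). By rank of log2 fold change among the 15658 genes tested, Chgb was 13, Gch1 26 and Th 45.

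Slc6a2, whose product takes noradrenaline back into the neuron, was barely detected. It reached at least 10 counts in 3 of 15 GFP+ SNS pools, with a maximum of 4.31 CPM, and was at 0 in 9. In GFP- SNS pools it was at 0 in 15 of 16, and the other held 3 counts. Its mean per kilobase of exon in GFP+ pools, 0.109 CPM, was below that of each of the other 8 genes.

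**Figure D2:**
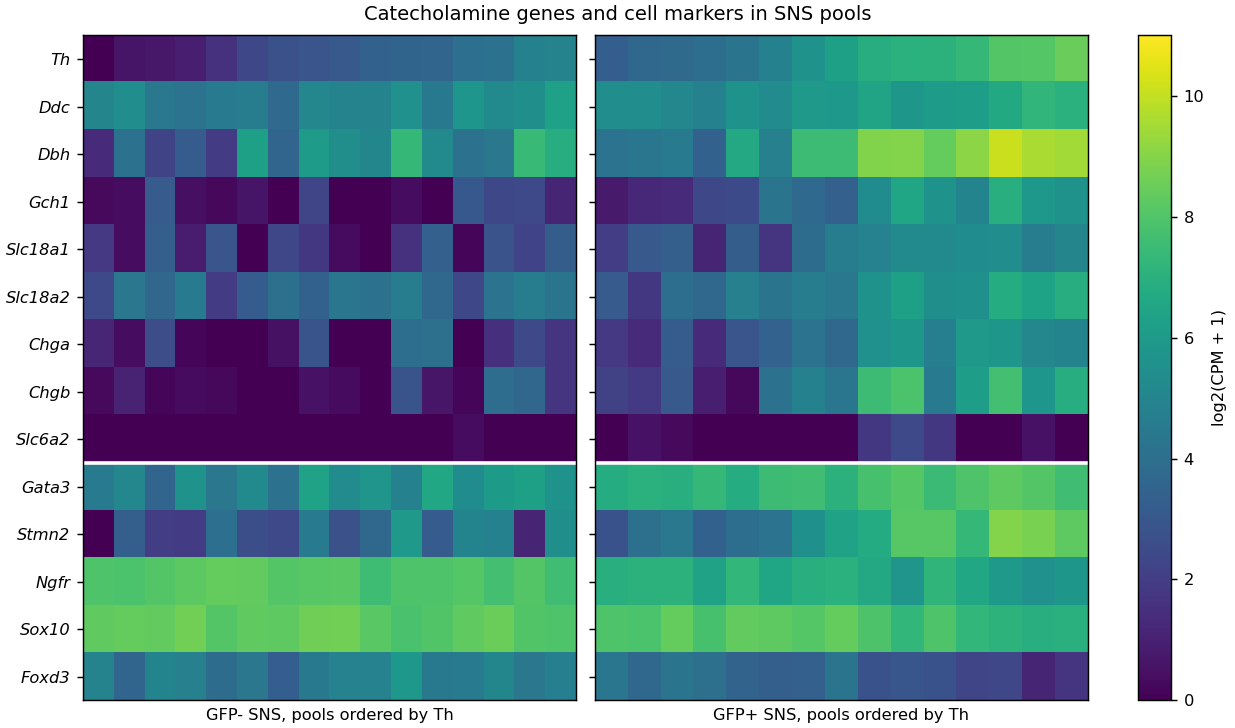
Heat map of log2 of CPM plus 1 for the 9 genes and for marker genes in the 15 GFP+ and 16 GFP- SNS pools, ordered by Th within each fraction. The pools with the most Th (up to 353 CPM) also hold the most Dbh, Gch1, Chgb and Stmn2, and Foxd3 runs the other way within GFP+ pools.

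The GFP+ SNS pools were not alike. The 9 pools whose Th exceeded all GFP- pools had a median of 135.1 CPM, and the other 6 had a median of 13.8 CPM (range 8.85 to 27.6), within the GFP- range. The same 9 pools exceeded all GFP- pools also for Dbh, Slc18a1, Chgb and Gch1 in 9 of 9 cases, for Chga in 8, for Slc18a2 in 7 and for Ddc in 4. Of the other 6 pools 1 did so for Chgb, Gch1 and Slc18a2 and 0 for Dbh, Slc18a1, Chga and Ddc. These pools were set apart by their Th values, so the counts are a description and carry no test.

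Spearman rank correlations of CPM between pairs of the 8 tested genes ran from 0.74 to 0.95 across the 15 GFP+ pools, with a median of 0.86, and all 28 pairs were above 0.5. Across the 16 GFP- pools they ran from -0.17 to 0.71 with a median of 0.29, and 7 of 28 pairs were above 0.5. Pools of a fraction share its sort and depth range, and these genes had lower counts in GFP- pools. The part of counting error in the lower GFP- correlations was not tested. Ordered by Spearman's rho with Th over the 15 GFP+ pools, over the 11724 genes that reached 10 counts in 75% of these pools, the first 10 were Agtr2 (0.96), Rtn1, Gap43, Dbh (0.95), Eya1, Hand2os1, Stmn3, Tubb2a, Slc18a2 (0.94) and Uchl1. Several of these are general neuronal genes, such as Gap43 of the growth cone and the tubulin Tubb2a. Gch1 was at rank 32, Ddc at 43 and Chga at 97, Slc18a1 came after these and Chgb was at 204, while Sox10 had a rho of -0.65 and Foxd3, a regulator of early crest and Schwann precursors, of -0.92 at rank 11723. Over all 11724 genes the median rho was close to 0 (-0.0036), and 11.4% were above 0.5.

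Markers of cell type moved with the same split. Of 6 sympathetic neuroblast markers 5 were higher in GFP+ pools (among them Prph, Stmn2, Tubb3 and Elavl4) and Ngfr was lower, and their sum ran from 796 to 2849 CPM against 435 to 1009 CPM. Of 7 Schwann cell precursor markers 1 (Sox2) was higher and 2, Foxd3 among them, were lower, with sums of 513 to 1184 against 864 to 1276 CPM, so precursor transcripts were measured in every GFP+ pool. All 7 mesenchyme markers were lower in GFP+ (100.5 to 335 against 367 to 897 CPM), as were Lhx9, Wt1 and Nr5a1 of the 5 adrenocortical and gonadal markers (0.595 to 19.2 against 9.83 to 364 CPM) and Emx2, Pax8 and Pax2 of the 5 nephric markers. No neuroblast or Schwann marker was at 0 throughout either fraction. The part of these differences in cell type in the values of the 9 genes was not tested.

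The 6 SNS pools left out held little of the pathway. Th was 1.08 to 2.94 CPM in the 3 GFP+ and 0.234 to 0.446 CPM in the 3 GFP- pools, and their mesenchyme markers summed to 2722 to 5171 CPM. Slc18a2 was the exception, at 6.33 to 25.9 CPM in those GFP+ and 10.8 to 20.7 CPM in those GFP- pools, as high as in the GFP- SNS pools used. With these 6 pools included, 6 of the 8 genes were called higher, and Ddc (log2 fold change 0.97) and Slc18a1 (2.51) were not.

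Other genes of the pathway were read from lists of 46 genes tested in SNS cells, of which 18 were higher and 1 lower in GFP+ pools, beside 5.48% of all genes called lower. Among cofactor and synthesis genes 2 of 7 were higher. Cyb561, the vesicle cytochrome that returns electrons to ascorbate for Dbh, ran from 0 through 63.8 to 384 CPM against 0.254 through 3.85 to 42.3 CPM (log2 fold change 3.76, SE 0.69, adjusted p = 0.0001468), and Pcbd1, which recycles the cofactor, had a log2 fold change of 0.53 (adjusted p = 0.005335). Pts, Spr, Qdpr and Gchfr, which act after or upon Gch1, lay between -0.26 and 0.07 and were not called, so of the biopterin genes tested Gch1 and Pcbd1 were called. Pnmt, which makes adrenaline from noradrenaline, was the gene that fell, by 3.51 on the log2 scale (adjusted p = 0.005056), but at 3.52 CPM or less in every SNS pool and at 0 in 13 of 15 GFP+ pools, and DESeq2 did not call it.

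Of 13 dense-core vesicle and release genes 6 were higher and none was lower, with a median log2 fold change of 1.96: Snap25 (2.94, adjusted p = 0.0002351), Pcsk1n (2.55, adjusted p = 0.0001265), Ptprn (2.29, adjusted p = 0.005666), Scg5, Scg3 and Cadps. Snap25 is the membrane fusion protein and Pcsk1n and Ptprn are proteins of the secretory granule. Of 12 regulators of the lineage 8 were higher, led by Phox2a (3.11), Isl1 (3.03) and Hand2 (2.16), with Gata3, Insm1 and Sox11 among the others, and none was lower. The count includes Gata3, whose reporter defined the fractions, so its difference was set by the sort. Among breakdown enzymes Maoa was higher (0.64, adjusted p = 0.005201), though the scanpy test called 0 of the 3 tested (3 at an unadjusted p under 0.05), and Maob (1.10) was not called.

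Genes that sense catecholamines or acetylcholine were largely below the filter. Of 9 adrenergic receptors 2 were tested and 0 called by edgeR, DESeq2 or the scanpy test (Adra2a -0.25), and 0 were at an unadjusted p under 0.05, and of 5 dopamine receptors only Drd4 was tested (1.61, adjusted p = 0.0744). Chrnb4, a subunit of the ganglionic nicotinic receptor, was higher (3.07, adjusted p = 0.004334), 1 of 4 cholinergic genes tested, though DESeq2 called 0 of the 4 and had 3 at an unadjusted p under 0.05. Of other monoamine transporters only Slc29a4 was tested (1.45, adjusted p = 0.01026, called by DESeq2 and by the scanpy test), and of 3 neuropeptides tested, Npy, Gal and Penk, 0 were called by any of the 3 tools and 0 were at an unadjusted p under 0.05 in edgeR. With ERCC scaling, which moved the median of all genes by 0.44, 30 genes of the lists were higher, and with the 6 SNS pools of Pdgfrb above Ngfr included 8 were.

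**Figure D3:**
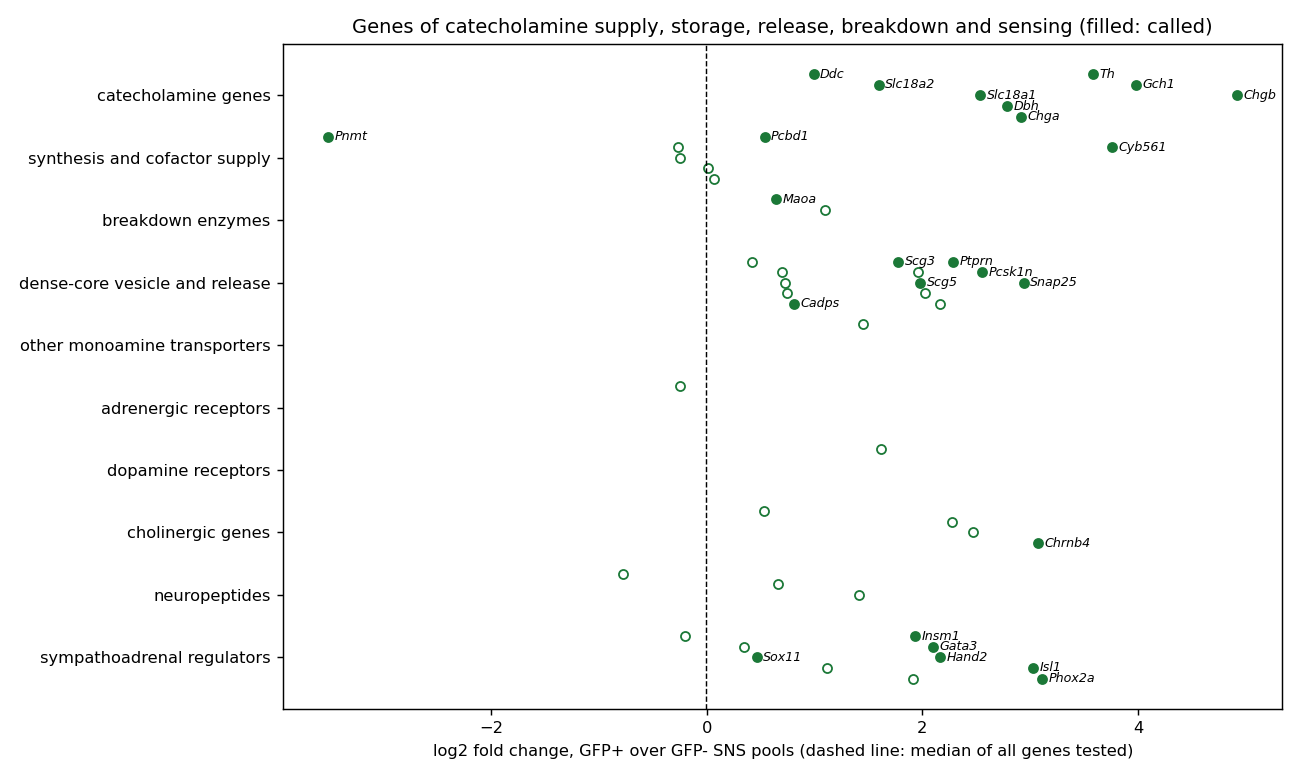
Log2 fold change, GFP+ against GFP- SNS cells, of tested genes in the pathway lists (one row of points a list); filled points passed adjusted p under 0.01 and open points did not. The 8 tested members lie between 0.99 and 4.92, and the vesicle and regulator lists lie mostly to the right of 0.

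In E10.5 HCs the question was how much of the pathway is found in cells sorted for CD41 and CD45. Ddc was higher in nearly every GFP+ pool, whereas Th, Dbh, Chga, Chgb and Slc18a1 were concentrated in a few pools. Of 7 genes tested 4 were higher in GFP+ HCs (Th, Chgb, Ddc and Dbh), beside a background of 17.1% of 16200 genes. Th and Chgb reached the filter through GFP+ pools alone, so for them a call could only be higher. Chga and Slc6a2 were below the filter.

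Ddc ran from 2.86 through 31.8 to 72.8 CPM in the 20 GFP+ HC pools and from 0 through 0.531 to 4.15 CPM in the 20 GFP- pools (log2 fold change 5.08, SE 0.49, adjusted p = 1.946e-10). The fractions overlapped in 1 GFP+ pool only, and the highest pool held 10.2% of the sum over GFP+ pools. The GFP+ HC level at E10.5 was close to that of GFP- SNS pools at E11.5 (means 35.6 and 33.7 CPM, adjusted p = 0.9071), the log2 difference being 0.07 with an SE of 0.42.

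Th ran from 0 through 1.64 to 416 CPM in GFP+ HCs, where 6 pools were at 0 and 7 had at least 10 counts, and no GFP- HC pool exceeded 5 counts or 1.17 CPM. Th therefore passed the filter (10 counts in 5 pools) through GFP+ pools alone, which set the direction of its call in advance. Its log2 fold change of 7.40 (SE 1.07, edgeR adjusted p = 5.282e-07) is set against counts near 0. A single GFP+ pool held 57.04% of the Th summed over the 20 pools, and 5 pools held 96.2%. Dbh ran from 0 through 4.66 to 675 CPM against 0.196 through 3.05 to 8.05 CPM (log2 fold change 4.43, SE 0.85, adjusted p = 5.811e-05), with 52.2% in the same pool. That pool also had the highest Slc18a1 (115.5 CPM, 81.3% of the sum), Gch1 (148.7 CPM, 51.3%), Chgb (57.9 CPM, 62.8%), Chga (51.04 CPM, 50.2%) and Slc18a2 (166 CPM, 29.3%), and Stmn2 at 452 CPM. Without it the log2 fold change was 6.20 for Th and 3.38 for Dbh, both still called, and -1.04 for Slc18a1 and -0.02 for Gch1.

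The remaining genes were not called. Gch1 had nearly equal medians of 6.75 and 6.85 CPM (log2 fold change 0.99, SE 0.56, adjusted p = 0.1686), and Slc18a1 a lower median in GFP+ pools, 0.689 against 1.75 CPM, beside a positive fitted value (1.36, SE 0.77, adjusted p = 0.1679), since 1 pool carried most of the sum. Slc18a2 had medians of 21.04 and 8.70 CPM with overlapping ranges (1.24, SE 0.44, adjusted p = 0.02503). Chga and Chgb were at 0 in 12 and 13 of 20 GFP+ pools, and GFP- pools held at most 1 and 2 counts of them, so no fold change is given for either, although Chgb passed the test (adjusted p = 2.566e-05).

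**Figure D4:**
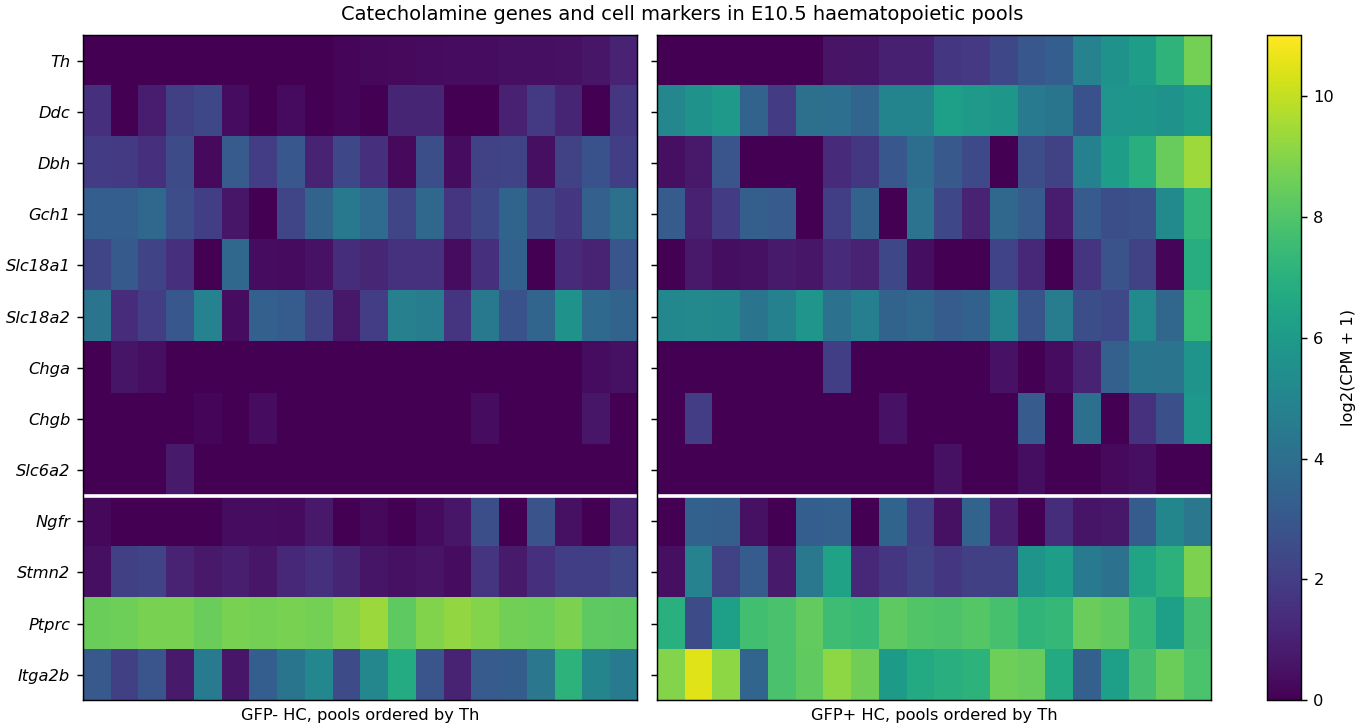
Heat map of log2 of CPM plus 1 for the 9 genes and for marker genes in the 20 GFP+ and 20 GFP- HC pools, ordered by Th within each fraction. Ddc is present across GFP+ pools (2.86 to 72.8 CPM), while Th, Dbh, Chga and Chgb are strong in a few pools, most of all the pool with 452 CPM of Stmn2.

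Markers of other cell types stood beside these values. In GFP+ HCs the 6 neuroblast markers summed to 1.43 through 106.7 to 1318 CPM against 2.57 through 10.3 to 26.96 CPM in GFP- HCs, and 5 of 5 tested were higher. All 7 mesenchyme markers were higher (17.4 to 956 against 3.37 to 174 CPM), 4 of 5 haematopoietic markers lower and Itga2b, the gene of CD41, higher. Also higher were 3 of 3 tested markers of nephric duct epithelium (Epcam 5.44, Cdh1 4.92 and Emx2), 3 of 4 of Schwann cell precursors and 4 of 5 of endothelium. Without the 12 pools with at least 10 Ngfr counts (10 GFP+ and 18 GFP- pools left), Ddc remained higher (4.77, SE 0.60, adjusted p = 1.934e-06), beside a background of 8.07% of 14930 genes. The GFP+ pools kept still held other markers: sums reached 183.1 against 26.96 CPM for neuroblast markers, and median sums were 281 against 27.4 CPM for mesenchyme and 14.2 against 0.624 CPM for nephric duct epithelium, and their part in the Ddc values was not tested. Dbh was then at 1.81 (SE 0.70, adjusted p = 0.06079), Gch1 at -0.12, Slc18a1 at -0.98 and Slc18a2 at 0.63, none called. Th and Chgb no longer reached the filter, which Chga had not reached with all HC pools either. In edgeR's fit of all 8 populations without these 12 and the 6 MC pools, Th (adjusted p = 1.281e-09), Chga (0.000107) and Chgb (4.098e-05) were called higher as well as Ddc, each with few counts in GFP- HCs. The filter of that fit runs over all populations, so Th, Chga and Chgb passed it through pools other than these HC pools. Their GFP- HC means were 0.196, 0.088 and 0.053 CPM, so their calls are set against counts near 0. Dbh was not called (adjusted p = 0.01097), beside 3209 of 19583 genes called in either direction. In those 10 GFP+ pools, chosen by raw Ngfr counts without scaling for depth, Ddc still ran from 2.86 to 72.8 CPM, and Th from 0 through 3.24 to 48.1 CPM. Which cells held this Th was not tested.

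Receptors that sense monoamines and transporters that take them up are part of the same lists. Which cells of the HC pools held their RNA was not tested. Adrb3 ran from 0.527 through 8.61 to 26.6 CPM in GFP+ HCs and was at 0 in 16 of 20 GFP- pools, with a maximum of 0.787 CPM (adjusted p = 1.933e-11). It reached the filter only through GFP+ pools, so its call, here and without the 12 HC pools, could only be higher. Adra2a was also higher (log2 fold change 3.97, adjusted p = 0.000135), whereas Adrb1 (-0.73) was not called, so that 2 of 4 receptors tested were higher, beside the background of 17.1%. The serotonin transporter Slc6a4, used by platelets and megakaryocytes, ran from 0.360 through 11.1 to 287 CPM against 0 through 0.209 to 14.9 CPM (5.29, adjusted p = 2.502e-06), and Slc29a4 (5.10) and the dopamine transporter Slc6a3 (3.82) were higher too, 3 of 4 transporters tested. Without the 12 HC pools Adrb3 (adjusted p = 7.423e-07) and Slc6a4 (4.02, adjusted p = 0.001754) were still higher, Slc6a3 was not called (2.87, adjusted p = 0.02949), and Adra2a and Slc29a4 did not reach the filter.

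In E10.5 ECs Slc18a2 was the member that differed most between the fractions. Slc18a2 ran from 136.5 through 207 to 293 CPM in the 19 GFP+ pools and from 7.69 through 25.4 to 43.5 CPM in the 20 GFP- pools, with no overlap (log2 fold change 3.05, SE 0.17, adjusted p = 3.96e-19), an 8.31-fold difference with the smallest SE among the tests of these genes between GFP fractions. The other member called was Dbh, at 0 through 1.07 to 9.11 CPM against 0 through 0.355 to 1.87 CPM (2.56, SE 0.68, adjusted p = 0.001774). Of 5 genes tested 2 were thus higher, beside a background of 19.5% of 15073 genes, and Ddc (-0.40, SE 0.59), Gch1 (-0.44, SE 0.50) and Slc18a1 (-0.64, SE 0.36) were not called.

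Th did not exceed 3 counts in any EC pool of either fraction, and Chga did not exceed 2. Chgb reached 5 counts in 1 pool at most and Slc6a2 8, so these 4 were not tested. The high Slc18a2 of GFP+ ECs was accordingly measured in pools in which Th was at or under 1.07 CPM. Under spike-in (ERCC) scaling, which moved the median of all genes by -0.60 on the log2 scale, Slc18a2 was still higher (2.48), Dbh was not called (1.87, adjusted p = 0.02081) and Slc18a1 was called lower (-1.36, adjusted p = 0.002524).

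Beside this, Stmn2, which is counted among the neuroblast markers, ran from 259 to 721 CPM in GFP+ ECs and from 13.4 to 143.8 CPM in GFP- ECs (3.05, adjusted p = 1.428e-15). Prph did not exceed 0.442 CPM and Ngfr 16.04 CPM in GFP+ ECs. All 7 mesenchyme markers were higher (a median sum of 92.04 against 15.6 CPM, with up to 1548 CPM in 1 GFP+ pool) and so were all 5 endothelial markers (3447 to 4873 against 1684 to 3083 CPM). Among vesicle genes Snap25 (2.95), Pam (2.15), Stx1a (1.30) and Vamp2 (1.18) were higher and Cpe (-1.19) lower, of 5 tested, and Cyb561 was higher (2.57, adjusted p = 3.345e-05).

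**Figure D5:**
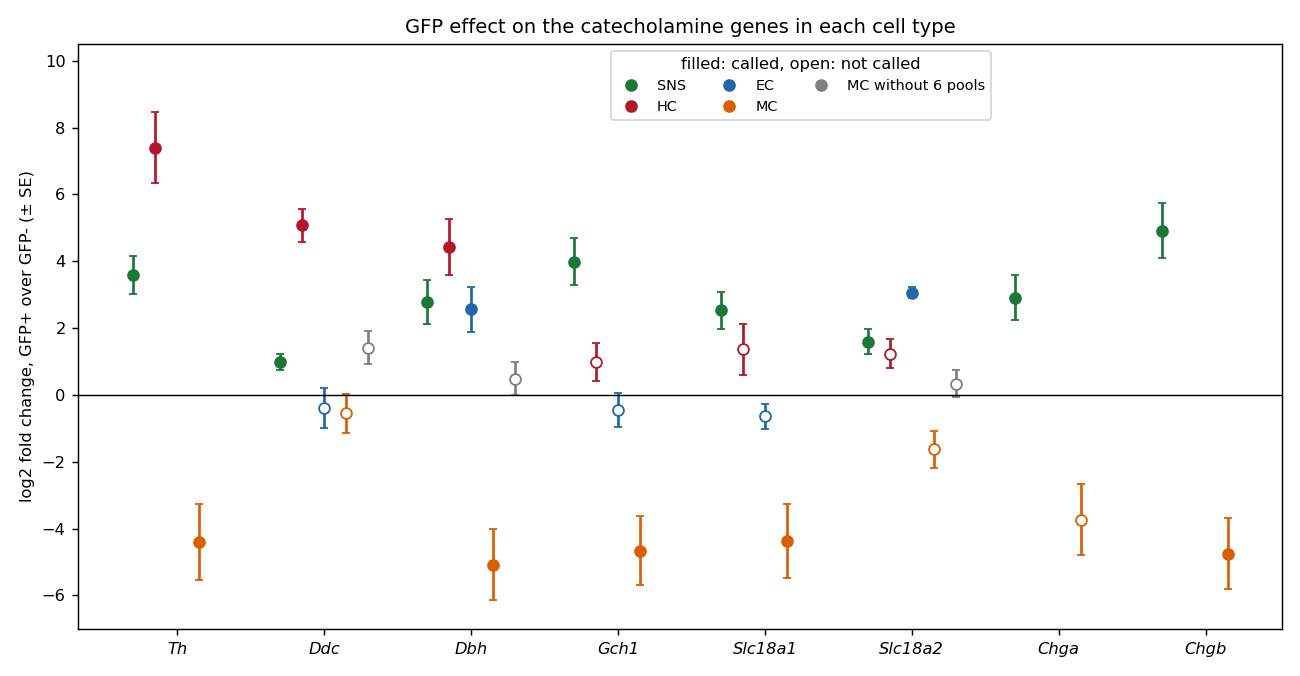
Log2 fold change of GFP+ over GFP- cells for the 8 genes tested, by cell type (Chgb in HCs, with at most 2 counts in any GFP- pool, is not drawn), with bars of 1 SE; filled points passed adjusted p under 0.01 and open points did not, and MCs are shown with and without the 6 pools whose Ngfr exceeded Pdgfrb. SNS values are all above 0, the MC values that pass the test lie between -5.08 and -4.38, and without those 6 pools no MC value passes.

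In E11.5 MCs the result depended on which libraries were counted. With all pools, 5 of 8 genes tested were lower in the libraries labelled GFP+: Dbh (-5.08, adjusted p = 0.001376), Chgb (-4.75, adjusted p = 0.002986), Gch1 (-4.66, adjusted p = 0.002643), Th (-4.39, adjusted p = 0.009642) and Slc18a1 (-4.38, adjusted p = 0.008004), beside a background of 2.15% of 16026 genes called lower (2.21% were called higher). DESeq2 called 1 of them (Dbh -2.78, adjusted p = 0.003209). The values came from 3 libraries labelled GFP- MC. In these Th was 68.4, 478 and 498 CPM, Dbh 464, 1640 and 1855 CPM and Chgb 57.4, 156.4 and 368 CPM, while none of the other 14 GFP- MC pools exceeded 5.74 CPM of Th or 5.85 CPM of Dbh. The upper 2 values of Th and of Dbh were the highest of all pools used, above the 416 CPM of Th in 1 GFP+ HC pool and the 1113 CPM of Dbh in 1 GFP+ SNS pool, and Slc6a2 reached 22.9 CPM in 1 of the 3 libraries. Gata3 in the 3 libraries was 122.6, 353 and 395 CPM.

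The 3 libraries labelled GFP+ MC with Ngfr above Pdgfrb held 0.214, 18.2 and 22.02 CPM of Th and 3.85, 21.2 and 54.3 CPM of Dbh. Without all 6 pools 3 genes could be tested and 0 were called by edgeR, against 10.4% of 15226 genes called in either direction. Ddc was at 1.41 (adjusted p = 0.03964) and was the 1 gene at an unadjusted p under 0.05, while Dbh was at 0.48 and Slc18a2 at 0.33, and no other tool was run on these pools. In these 17 GFP+ and 14 GFP- pools Ddc ran from 0.890 through 10.8 to 53.1 CPM against 1.28 through 4.95 to 17.6 CPM. Slc18a2 ran from 1.72 to 20.0 against 0 to 17.1 CPM, and Dbh, which had counts in every one of these pools, did not exceed 8.90 CPM.

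Between the 2 cell types of E11.5, with both fractions together, 3 of 8 genes tested were higher in SNS than in MC pools (Slc18a1 1.92, Dbh 1.65 and Ddc 1.09), beside a background of 12.2% of 19998 genes. Without the 6 MC pools all 8 were higher, beside 16.8%: Slc18a1 by 5.76, Dbh by 5.47, Th by 5.12, Chga by 5.005, Gch1 by 3.95, Chgb by 3.89, Ddc by 2.29 and Slc18a2 by 1.64 on the log2 scale. Of these, Slc18a1, Th, Chga, Gch1 and Chgb did not reach the filter within the MC pools kept and passed it through other populations. Their differences are set against MC counts near 0 (for Slc18a1, means of 0.220 and 0.057 CPM), so the count of 8 is a description. Slc18a2 and Ddc thus had the smallest difference between the sympathetic and mesenchymal sorts, as they had the smallest difference between the GFP fractions of SNS cells. The GFP effect itself was higher in SNS cells than in MCs for 7 of the 8 genes, all but Ddc, beside a background of 3.78% of genes, and without the 6 MC pools for 1 of the 8, Chgb. That value of Chgb too is set against MC counts near 0 (means of 0.886 and 0.723 CPM).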

How the data were processed

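The analysis started from the table of raw counts per gene that the authors deposited, 1 column for each pool of 20 sorted cells. The methods name STAR and an Ensembl 81 annotation, whereas the submitters' processing notes name GSNAP, HTSeq (0.5.3p3) and mm10, and the table does not settle which applied. Reads were amplified without molecular identifiers, so counting floors cover counting error only. HTSeq's summary lines (no feature, ambiguous and the like) took a median of 51.2% of reads in the pools used (38.3 to 67.6%) and stayed out of library sizes. Gene symbols (45143 of 46078 IDs) came from GENCODE M21 and promoters from RefSeq.

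Pools passed with at least 500000 reads, at least 20% of them on genes, and at most 20% mitochondrial and 20% ERCC reads. SNS pools with raw Pdgfrb above Ngfr were left out, a limit likewise set with earlier results known, and 147 pools were used. Pools were grouped by the labels. The columns carry a population but no replicate number, and 0 columns were left unused. CPM values were computed on gene counts with edgeR after TMM scaling over the pools that passed. Genes that reached 10 counts in 5 or more pools of a comparison were tested by edgeR's quasi-likelihood test (edgeR 4.0.16, R 4.3.3), two-sided, with Benjamini-Hochberg adjustment over all genes tested; called means adjusted p under 0.01 and an absolute log2 fold change over 0.1. Alternatives used DESeq2 (1.42.0), scran (1.30.0) and ERCC size factors, the scanpy test (1.11.5), other filters and other pools. The scripts were tested on simulated data.

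The members and lists were chosen with earlier results of these data known. Genes named are the 9 members, for each list those called with the 3 largest log2 changes, the sort and cell type markers, and the 10 genes whose CPM ranked most like Th (Spearman) over GFP+ SNS pools over genes that reached 10 counts in 75% of these pools. Other list genes were named after their values were seen. The pools left out for their markers, in MCs and HCs, were also chosen after seeing the data. Some list genes count toward the lists but are not reported here by name or drawn.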

Additional observations from a re-analysis of the deposited data

Results flagged for a closer look

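The difference between GFP+ and GFP- pools was not the same in SNS cells and MCs for 7 of 8 genes, by an interaction term in edgeR over the pools of both cell types, beside a background of 3.78% of 19998 genes whose effect was higher in SNS cells. Each value is the log2 GFP effect in SNS cells minus that in MCs. It was 9.55 for Chgb (SE 1.25, adjusted p = 1.6e-09) and 8.66 for Gch1 (SE 1.16, adjusted p = 3.824e-09). For Th it was 7.97 (SE 1.18, adjusted p = 8.107e-08) and for Dbh 7.86 (SE 1.14, adjusted p = 4.477e-08). For the other 3 called it was 6.92 in Slc18a1, 6.63 in Chga and 3.23 in Slc18a2.

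These values rest on the MC libraries with Ngfr above Pdgfrb. Without the 6 pools, Chgb alone was called (4.49, adjusted p = 0.002876), beside 2.36% of 19859 genes, while Gch1 was at 3.75 (adjusted p = 0.01368), Th at 3.37 (adjusted p = 0.02607), Chga at 3.07 (adjusted p = 0.08727), Dbh at 2.19 (adjusted p = 0.1442), Slc18a2 at 1.27 (adjusted p = 0.1236) and Slc18a1 at 0.86 (adjusted p = 0.9416). Chgb, Gch1, Th, Chga and Slc18a1 did not reach the filter within the MC pools kept and passed it through other populations. Their values set the SNS difference against MC counts near 0 (for Chgb, means of 0.886 and 0.723 CPM). The part of the marker levels of the libraries with Ngfr above Pdgfrb in the other values was not tested.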

How the results depend on the processing

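In SNS cells 8 genes were called higher with TMM, DESeq2 or scran size factors, ERCC scaling, DESeq2's own test and the other filters that left Slc6a2 untested. Without a filter 9 were called, with the pools of Pdgfrb above Ngfr included 6, by the scanpy test 6, and leaving out each pool in turn 8 to 8. In the fit of all 8 populations with the 6 MC pools kept, Dbh, Ddc, Slc18a1 and Chga were not called. Of the other pathway genes 18 were called, 15 to 20 leaving out each pool in turn, 30 with ERCC scaling and 8 with those SNS pools included. In HCs 4 members were called (Th and Chgb passed the filter through GFP+ pools alone), 3 to 5 leaving out each pool in turn, 2 when at least 10 counts in at least 10 pools were asked for and 1 without the pools with at least 10 Ngfr counts. In the fit of all 8 populations without those HC pools and the 6 MC pools, Th, Chga and Chgb were called beside Ddc, but they passed its filter through other populations. In ECs 2 were called, against 1 with ERCC scaling and 1 with the filter on 10 pools. In MCs 5 were called lower, against 1 by DESeq2's test, 1 with the filter on 10 pools and 0 without the 6 pools with Ngfr above Pdgfrb; Dbh turned to 0.48 without these pools and Gch1 to 1.02 by DESeq2's test. Between SNS cells and MCs 3 were called higher, 1 with all SNS pools and 8 without the 6 MC pools, and the GFP effect differed for 7 genes, for 1 without them. Of 56 neighbouring pairs in the orders of levels 8 differed, 11 without the 6 MC pools and 10 also without the 12 HC pools. The stricter filter leaves fewer genes to test; the cause of the other changes was not tested.

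ERCC scaling moved the share of called genes that were higher from 47.4 to 91.9% in SNS cells, from 54.1 to 14.3% in ECs, to 72.4% in MCs, from 44.7 to 86.4% between SNS cells and MCs, and to 78.4% for the difference in GFP effect. No paired analysis was possible because the columns carry no replicate numbers. Leaving out each pool was not run for ECs and MCs.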
